A study of Mus musculus with 4 samples.

Results

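Hypothalamic transcript levels were compared between mice given 1000000 C26 cells (1M) and mice given 500000 (0.5M), a doubling of the inoculum with the tumour present on both sides. The comparison used 2 of the 4 arrays of the study, chosen by the number of cells recorded in their labels, and it covered all 19938 named genes. The 1M array held RNA pooled from 3 mice and the 0.5M array RNA pooled from 4 mice. Both groups were male CDF1 mice, a cross of BALB/c and DBA/2, aged 10 to 11 weeks, with no genetic change recorded, injected subcutaneously over the right inguinal flank and sampled on day 20. The other arrays held 1 mouse given 2000000 cells (2M) and a pool of 4 control mice given a sham injection of 0.2 ml of buffered saline. They are given here as values beside the comparison. With 1 array on each side there is no replicate and no spread between animals, so no p-value can be given, and every count below is a count by size. Each array is set by which mice entered its pool and by how the hypothalamus was cut as well as by the number of cells, and these cannot be told apart.

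C26 is a mouse colon adenocarcinoma line grown as a model of cancer cachexia, the wasting of muscle and fat that accompanies some tumours. The hypothalamus sets food intake and energy use through neurons that release neuropeptides such as neuropeptide Y and the products of proopiomelanocortin, and it senses hormones, glucocorticoids and inflammatory cytokines from the blood. It lies above the pituitary gland and next to the midbrain and the ventral forebrain, so a dissected piece of tissue can hold cells of these neighbours. In bulk tissue, fewer cells of a type and less RNA per cell cannot be told apart.

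The 2 arrays differed most in Gh and Prl, the growth hormone and prolactin transcripts of the anterior pituitary, which were far lower at 1M. The other pituitary genes measured, on a mostly dim list, lay close together. Among the lists examined the markers of dopamine neurons had the lowest median. Lists of hypothalamic appetite peptides had medians of 0.02 and 0.00, with members between -0.48 and 0.43. Myelin genes and glucocorticoid-induced genes were mostly slightly higher at 1M. So were oligodendrocyte precursor, astrocyte, microglia and immediate early genes, and 65.2% of all genes. Values are log2 expression values, on which a difference of 1 is a doubling, and a difference is always the 1M value minus the 0.5M value.

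At a threshold of 0.5 log2, which is 1.41-fold, 518 genes (2.6% of all genes) were higher at 1M and 138 (0.692%) were lower. Over all genes 65.2% were higher by any amount, and the median difference was 0.07 with an SD of 0.22. This balance depended on dim genes. Of the 518 higher genes, 469 had a mean level under 6.59 log2, the 40th percentile of all genes, against 34 of the 138 lower genes. Among the 11963 genes at or above that level, 49 (0.41%) were higher and 104 (0.869%) were lower. Higher genes made up 79.0% of the calls over all genes and 32.0% over the brighter ones, and 30.9% after a cyclic loess over the 4 arrays. In 10 groups of genes of equal size by mean level, the median difference was 0.12 in the dimmest group, 0.20 in the third group and -0.02 in the brightest. A list of dim genes thus tended to have a positive median on these arrays, so a list median is also given against level bins wherever that moved it by more than 0.05 log2. Level bins are 20 groups of genes by mean level, and a value against level bins is a difference less the median of its bin. On that scale 107 genes were higher and 277 lower, 27.9% higher.

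**Figure D1:**
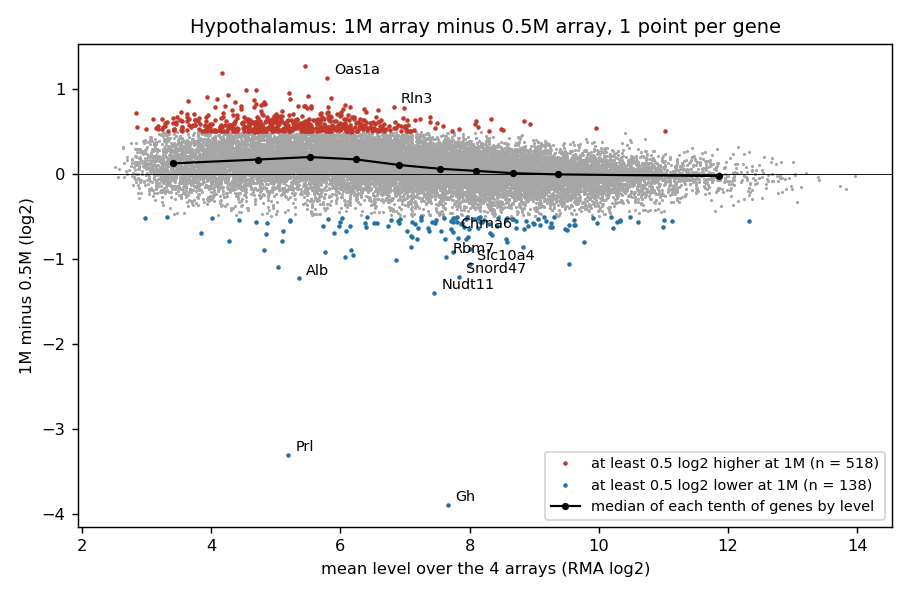
Difference of the 1M array minus the 0.5M array (log2) against the mean level over the 4 arrays (log2), with 1 point per gene and named genes labelled. The cloud sits above 0 among dim genes and near 0 among bright genes, while Gh and Prl lie far below it at -3.89 and -3.30.

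The same count was made for the other pairs of arrays to give it a scale. The 1M array differed from the control at 958 genes, and the 2M array differed from the control at 599 genes. The 0.5M array differed from the control at 277 genes, fewer than the 656 (3.29% of all genes) at which it differed from 1M. The 2M array differed from 1M at 332 genes and from 0.5M at 264 genes. The SD of the difference over all genes was 0.22 for 1M minus 0.5M and lay between 0.18 and 0.24 for the other 5 pairs. Among genes at least 0.5 log2 lower at 1M than at 0.5M, the 1M array was the lowest of the 4 in 118 of 138 (85.5%), against 18.6% of all genes. Among those at least 0.5 log2 higher, it was the highest of the 4 in 491 of 518 (94.8%), against 42.7% of all genes. The 0.5M array was the highest of the 4 in 72 of the 138 lower genes (52.2%), against 14.6% of all genes. Choosing genes by 1M minus 0.5M itself favours an extreme rank of these arrays.

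**Figure D2:**
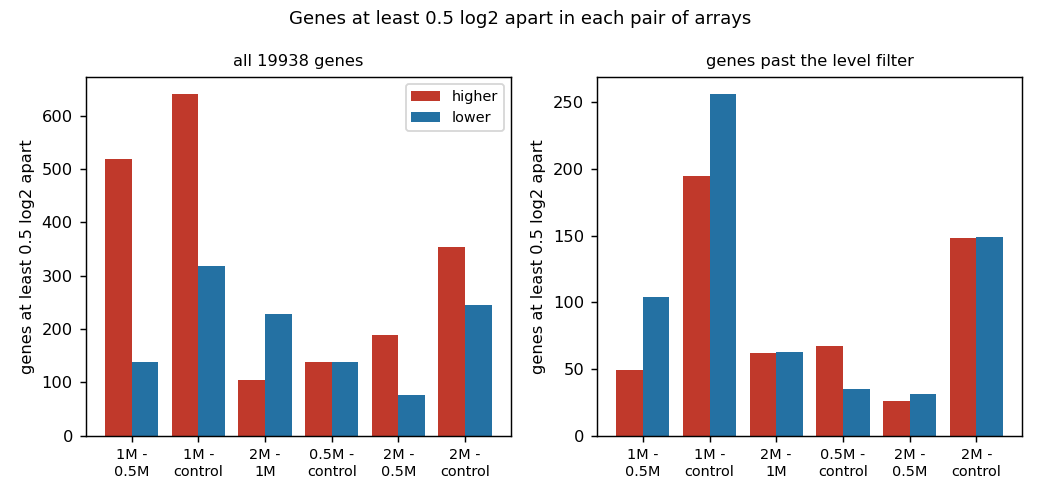
Number of genes at least 0.5 log2 higher and lower in each pair of arrays, over all genes and over genes at or above the 40th percentile of level. For 1M minus 0.5M the bars are 518 higher and 138 lower over all genes, and 49 higher and 104 lower among the brighter genes.

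For 999 genes several probe sets were measured on the same 2 arrays. The SD of their differences about their gene's mean was 0.19, against an SD of 0.22 over genes, so for a single gene a difference below about 0.2 log2 is no larger than the disagreement between probe sets. Of 35 genes past the threshold with several probe sets, 8 stayed past it when the probe sets were averaged and 1 changed sign. Scoc was -0.81 by its brightest probe set and -0.21 averaged, with its probe sets at -0.81 and 0.38. Ano3, an anoctamin, was -0.86 and -0.66 averaged.

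Growth hormone and prolactin transcripts, made by somatotrophs and lactotrophs of the anterior pituitary, gave the largest differences of all genes. Gh was 6.91 log2 at 1M and 10.80 at 0.5M, a 14.9-fold lower level at 1M (difference -3.89). The control and 2M arrays gave 6.13 and 6.85, so the 0.5M array alone was high. Prl was 4.50 log2 at 1M and 7.80 at 0.5M, a 9.86-fold lower level at 1M (difference -3.30), with 3.95 in the control and 4.51 at 2M. Its mean over the 4 arrays was below the 40th percentile. Other hormone subunits of the gland did not follow. Cga, the shared subunit of the glycoprotein hormones, differed by 0.03, Lhb by 0.04 and Fshb, a dim gene, by 0.21. The difference of Tbx19, a factor of the corticotroph lineage, was 0.18. Of 13 pituitary genes 10 were measured, 5 higher and 5 lower, with 2 (Gh and Prl) past the threshold. The list is mostly dim, with a median level of 6.09 log2 and 4 of the 10 at or above the 40th percentile. A small difference in its dim members therefore says little about the gland. Their median difference was 0.01 (-0.09 against level bins) and their mean -0.66. Pou1f1, the pituitary factor that drives both Gh and Prl, had no row of its own. The part of pituitary tissue in the 0.5M pool in differences of other genes was not tested.

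The promoter of Prl is printed because Gh and Prl moved together and POU1F1 is known to act on both. The promoter sequences available held none for Gh, so the promoters of these genes could not be compared. It runs from 250 bases before to 50 bases after the start of the gene, at chr13:27057320-27057619 on the plus strand of mouse GRCm38.p6, from RefSeq. Capitals mark matches to TATNCAT or its reverse complement ATGNATA, a simple form of the POU1F1 site that was chosen after the values were seen.
Prl promoter: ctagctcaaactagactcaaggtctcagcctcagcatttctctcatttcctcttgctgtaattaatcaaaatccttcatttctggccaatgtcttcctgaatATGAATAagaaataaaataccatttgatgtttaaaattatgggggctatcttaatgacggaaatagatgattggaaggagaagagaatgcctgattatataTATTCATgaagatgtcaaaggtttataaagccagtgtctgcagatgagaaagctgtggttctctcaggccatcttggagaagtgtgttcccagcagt
The 2 matches begin at -148 and -47 from the start of the gene. The motif was present in 8.84% of the 32851 promoters of this length, so a match is a description of the letters and shows no binding.

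Markers of dopamine neurons were lower at 1M in 12 of 14 genes, against 34.7% of all genes. Their median difference was -0.32, against 0.07 over all genes. Past the threshold were 3 of the 14, all lower, against 0.692% lower and 2.6% higher over all genes. Chrna6, a nicotinic receptor subunit concentrated in midbrain dopamine neurons, was 8.02, 7.94, 7.26 and 7.74 log2 in the control, 0.5M, 1M and 2M arrays (difference -0.68). Slc6a3, the dopamine transporter, was 10.76, 10.56, 10.05 and 10.55 log2 in the same order (difference -0.51). Th, tyrosine hydroxylase, the rate-limiting enzyme of dopamine synthesis, was 10.53, 10.32, 9.82 and 10.08 log2 (difference -0.50). In each of these genes the 1M array was the lowest and the control the highest. Slc6a3 and Th lay at the threshold, Th at -0.501 with the nearest gene outside it at -0.499, and both were -0.47 after cyclic loess.

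The transcripts that load and supply dopamine followed in the same direction by smaller amounts. Slc18a2, the vesicular monoamine transporter, was 9.11 log2 at 1M and 9.44 at 0.5M, and Aldh1a1, an aldehyde dehydrogenase of these neurons, was 9.19 at 1M and 9.52 at 0.5M. Nr4a2, the nuclear receptor that maintains dopamine identity, was 8.91 log2 at 1M and 9.23 at 0.5M. Gch1, which supplies the cofactor of tyrosine hydroxylase, was 4.66 log2 at 1M and 5.06 at 0.5M and is a dim gene. Ddc, the decarboxylase, differed by -0.11. The 2 members that were higher at 1M were the transcription factors Pitx3 (6.85 log2 at 1M and 6.48 at 0.5M) and Foxa2 (6.87 at 1M and 6.60 at 0.5M). The 1M array was the lowest of the 4 in 10 of the 14 genes, against 18.6% of all genes. That rank uses the same 1M and 0.5M values as the difference, so it is no separate support. Set against the control, the median of the 14 genes was -0.15 at 0.5M, -0.44 at 1M and -0.13 at 2M, so the list did not fall with cell number. Slc10a4, a vesicular transporter-like protein of monoamine and cholinergic neurons, was on no list. It was named because its difference (-1.06) was among the lowest of the brighter genes. Its levels were 8.40, 8.26, 7.20 and 8.17 log2 in the control, 0.5M, 1M and 2M arrays. Choosing it by that difference favours a low 1M value, so its likeness to the dopamine genes is no separate support.

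As a list, markers of the midbrain and hindbrain did not share this lean. Of 16 measured genes 11 were higher and 5 lower, near the share of all genes. Their median was 0.10, and -0.01 against level bins. Only Gata3 passed the threshold, at 6.38 log2 at 1M and 5.68 at 0.5M. En2 was among the lower genes, at 5.89 log2 at 1M and 6.21 at 0.5M, with the 1M array the lowest. The midbrain and hindbrain list is mostly dim, with a median level of 6.22 log2. Its 6 brighter genes had a median difference of 0.18. It shares Pitx3, which was higher, with the dopamine list. Of the serotonin neuron genes, 7 of 11 were lower with a median of -0.10, and of -0.17 against level bins. This list shares Gch1, which was lower, with the dopamine list, so these 2 lists are not separate. Its 1 member past the threshold was Gata3, shared with the midbrain and hindbrain list and higher at 1M. Maob was 9.15 log2 at 1M and 9.54 at 0.5M. Tph2, the rate-limiting enzyme of brain serotonin synthesis, was 5.12 log2 at 1M and 5.44 at 0.5M. Its transporter Slc6a4 differed by 0.02. The part of neighbouring tissue in the dopamine values was not tested.

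Transcripts of striatal medium spiny neurons, which receive dopamine, were lower at 1M in 13 of 16 genes, with a median of -0.21. Ppp1r1b, the dopamine-regulated phosphatase inhibitor DARPP-32, was 7.54, 8.42, 7.79 and 7.88 log2 in the control, 0.5M, 1M and 2M arrays (difference -0.62). Pde10a, the striatal phosphodiesterase, was 8.94, 9.78, 9.20 and 9.10 log2 (difference -0.57). Here the 0.5M array stood high, where in the dopamine list the 1M array stood low. Drd1, the D1 dopamine receptor, followed with 7.45, 7.88, 7.49 and 7.52 log2 (difference -0.38). Tac1, the precursor of substance P, differed by -0.48 and Rarb, a retinoic acid receptor, by -0.47. In 12 of the 16 genes the 0.5M array was the highest of the 4, against 14.6% of all genes. A list that is mostly lower at 1M tends to have this rank. The list shares Drd2 with the dopamine list and Ppp1r1b with the tanycyte list. Markers of the thalamus (15 genes, median 0.14 and 0.07 against level bins, 10 higher) and of cortex and hippocampus (14 genes, median 0.08, 9 higher) had 0 members past the threshold. Fezf2, a cortical neuron factor, was 7.45 log2 at 1M and 7.05 at 0.5M, and Mef2c was 8.24 at 1M and 8.63 at 0.5M.

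**Figure D3:**
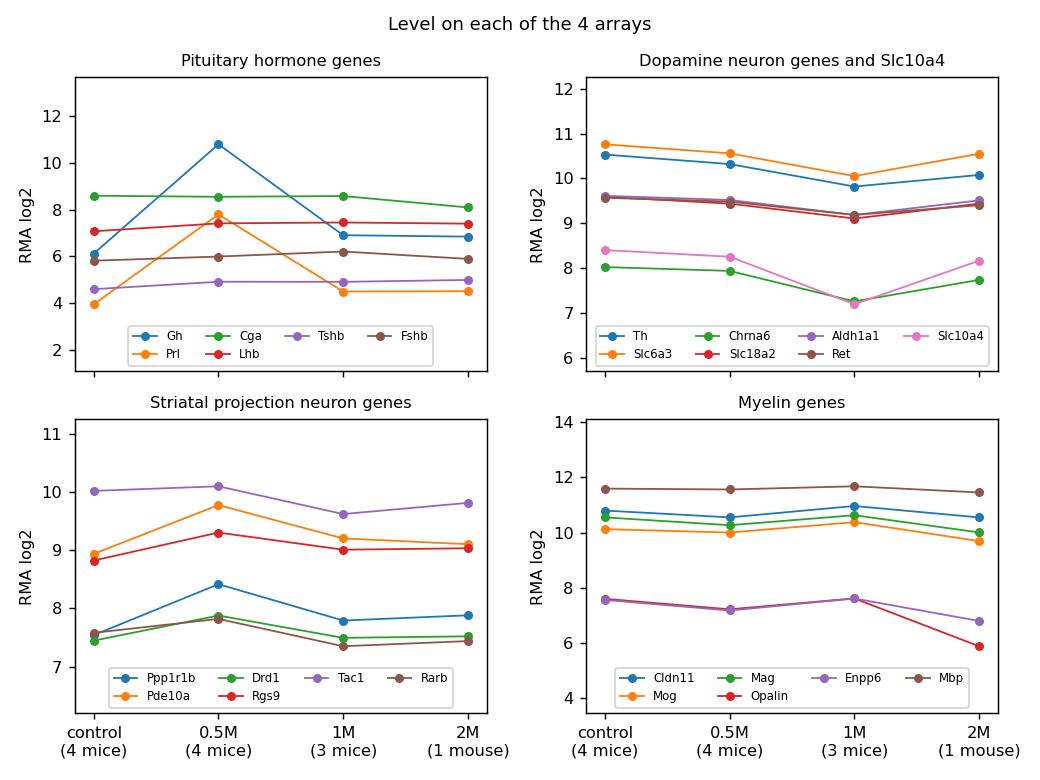
Log2 level of selected genes in the control, 0.5M, 1M and 2M arrays, 1 line per gene and 1 point per array with no replicate. Gh and Prl are high in the 0.5M array alone, dopamine genes are lowest in the 1M array, and striatal genes are highest in the 0.5M array.

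Factors that pattern the hypothalamus itself were higher at 1M in 19 of 23 genes with a median of 0.09. How much of the hypothalamus each pool held was not tested. Hmx3, a homeobox factor of the hypothalamus, was 7.08 log2 at 1M and 6.56 at 0.5M, the sole member past the threshold. Six6 differed by 0.39 and Six3 by 0.34, both homeobox factors of the ventral forebrain and eye field. Pou3f2 was 0.36 by its brightest probe set and -0.38 averaged over its probe sets. After each gene was set against its level bin, 14 of the 23 were above the bin median.

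Among brighter genes outside these lists, the lowest differences came from genes of unlike function. Nudt11, a phosphohydrolase of inositol pyrophosphates, was 7.91, 7.99, 6.60 and 7.32 log2 in the control, 0.5M, 1M and 2M arrays (difference -1.40). Zfp971, a zinc finger protein, was 8.77 log2 at 1M and 9.83 at 0.5M (difference -1.06), with 10.08 in the control and 9.48 at 2M. Rbm7, a subunit of the nuclear exosome targeting complex, was 6.89 log2 at 1M and 7.86 at 0.5M, with 8.14 in the control and 7.64 at 2M. In these 3 genes the 1M array was the lowest of the 4. Rny1, a Y RNA, differed by -0.86 and Glrx3, a glutaredoxin, by -0.77. Ddn, the postsynaptic protein dendrin, was 7.54 log2 at 1M and 8.29 at 0.5M, with 7.51 in the control and 7.96 at 2M, so it had the pattern of the striatal genes. Gm10785, A230006K03Rik and Rbm12b2 were the rest of the 15 lowest with small RNAs left out, at -0.92, -0.76 and -0.76.

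The highest differences among brighter genes were smaller. Rln3, the neuropeptide relaxin-3, which promotes feeding in rodents and is made mainly in the hindbrain nucleus incertus, was 7.20 log2 at 1M and 6.42 at 0.5M (difference 0.79). The control array gave 7.16 and the 2M array 6.53, so 1M resembled the control in this gene. Homer3, a postsynaptic scaffold, was 7.79 log2 at 1M and 7.12 at 0.5M, with 7.24 in the control and 7.38 at 2M. Dnajc17, a J-domain protein, was 8.77 log2 at 1M and 8.13 at 0.5M. Wnt9a, a secreted ligand, differed by 0.64, Tmem204 by 0.63 and Zfpm1, a cofactor of GATA factors, by 0.60. The others of the 15 highest, again without small RNAs, were AA386476 at 0.78, Gm11529 at 0.66, Rasef at 0.65 (0.41 averaged over its probe sets), Gm16982 and Mettl23 at 0.63, and Ppp1r13l, H2bc14, Gm7102 and Chst13 at 0.62. Among dim genes, Gm5592 (1.27), Gm5941 (1.19) and Oas1a (1.13) were highest, followed by Olfr967, Olfr1372-ps1 and Gm6040. Leaving out small RNAs, the lowest of the dim genes after Prl was Alb, albumin, at 4.70 log2 at 1M and 5.93 at 0.5M, followed by Zfp229, Zfp931, AB010352 and Vmn1r174 between -0.98 and -0.89.

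The abundant neuropeptides that promote feeding were close together. Npy, neuropeptide Y, was 10.53 log2 at 1M and 10.73 at 0.5M. Pmch, which encodes melanin-concentrating hormone, was 11.72 at 1M and 11.80 at 0.5M, and Hcrt, the orexin precursor, was 11.51 at 1M and 11.61 at 0.5M. Gal, galanin, was 9.92 log2 at 1M and 10.14 at 0.5M. All 4 of these abundant peptides were lower at 1M by 0.22 or less, about the size of the SD of 0.19 between probe sets of a gene. Qrfp, a peptide that promotes feeding in mice, was 6.82 log2 at 1M and 6.40 at 0.5M. The dim peptide Galp was 6.26 at 1M and 5.91 at 0.5M. Agrp, the agouti-related peptide, had no row. Of 8 measured members, 4 were higher, 4 lower and 0 past the threshold, with a median of 0.02, and of -0.03 against level bins.

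Peptides that restrain feeding had a median of 0.00 (-0.05 against level bins), with 10 of 20 higher and 10 lower and 0 past the threshold. Pomc, the melanocortin precursor, was 6.98 log2 at 1M and 6.99 at 0.5M, and Cartpt was 9.52 at 1M and 9.34 at 0.5M. Cck differed by 0.07, Crh by 0.01 and Trh by -0.05. Tac1, shared with the striatal list, was 9.62 log2 at 1M and 10.10 at 0.5M. Ucn, urocortin, was 6.19 at 1M and 5.76 at 0.5M and is dim. Receptors for appetite signals (26 genes) had a median of 0.03 (-0.03 against level bins), with 16 higher and 10 lower. Insr, the insulin receptor, was -0.31 by its brightest probe set and -0.13 averaged, and Galr3, a galanin receptor, was 7.42 log2 at 1M and 7.06 at 0.5M. None of the receptors passed the threshold.

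The releasing and posterior pituitary peptides (15 genes) had a median of 0.02 with 10 higher and 5 lower. Oxt and Avp, oxytocin and vasopressin, differed by 0.02 and 0.07, and Sst, somatostatin, which restrains growth hormone release, was 12.21 log2 at 1M and 12.02 at 0.5M. Ghrh, which drives growth hormone release, was 8.59 log2 at 1M and 8.27 at 0.5M, with 8.34 in the control and 7.92 at 2M. Sst and Ghrh each differed by 0.32 log2 or less, and their relation to the difference in Gh was not tested. Kiss1, kisspeptin, was 6.67 at 1M and 6.24 at 0.5M. The thyroid axis (10 genes) had a median of 0.01, with 5 higher and 5 lower. Dio3, which inactivates thyroid hormone, was 5.21 log2 at 1M and 4.83 at 0.5M and is dim, and Hr, a thyroid hormone target, was 8.33 at 1M and 8.01 at 0.5M.

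Genes induced by glucocorticoids were higher at 1M in 18 of 21, with a median of 0.13 and 0 past the threshold. These are mostly bright genes, and against their level bins the median was also 0.13 with 18 above. Arrdc2, an arrestin-domain protein, was 6.59, 6.88, 7.34 and 7.35 log2 in the control, 0.5M, 1M and 2M arrays. Plin4, a lipid droplet protein, was 6.69, 7.88, 8.15 and 8.30 log2, and Fkbp5, the glucocorticoid receptor co-chaperone, was 8.24, 8.44, 8.61 and 8.77 log2. The levels of these 3 genes were higher in every array with more cells, as in 7 of the 21 members and 6.07% of all genes. The other 14 were not in that order. Dusp1, a phosphatase of MAP kinases, was 9.43, 9.34, 9.72 and 9.92 log2 in the control, 0.5M, 1M and 2M arrays. Angptl4, a lipoprotein lipase inhibitor, was 6.63, 6.90, 7.26 and 7.03 log2, highest at 1M. Against the control, the list median was 0.27 at 0.5M, 0.38 at 1M and 0.49 at 2M, an order that shares the control array. Lcn2, which is also an acute phase gene, was the member with the largest difference in the other direction, at 8.23 log2 at 1M and 8.53 at 0.5M.

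Acute phase and interleukin 6 response genes differed little between the 2 arrays. Of 27 measured, 18 were higher and 9 lower, with a median of 0.07, equal to that of all genes, and -0.01 against level bins. Lcn2, the iron-binding lipocalin, was 6.02, 8.53, 8.23 and 8.82 log2 in the control, 0.5M, 1M and 2M arrays. It was thus well above the control in all tumour-bearing arrays and lower at 1M than at 0.5M by 0.30. Lrg1 was 7.84 log2 at 1M and 7.96 at 0.5M, and Osmr, the oncostatin M receptor, was 7.77 at 1M and 7.71 at 0.5M. Socs3, the feedback inhibitor of this pathway, was 7.09 log2 at 1M and 6.68 at 0.5M. The one member past the threshold was Hp, haptoglobin, a dim gene at 6.27 log2 at 1M and 5.60 at 0.5M. Hamp, hepcidin, was 4.04 at 1M and 3.58 at 0.5M, with 3.30 in the control and 4.28 at 2M.

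Cytokine and NF-kB genes were higher at 1M in 23 of 31, with a median of 0.19. Most are dim, and the median against level bins was 0.06. Il6, at 3.28 log2 at 1M and 2.85 at 0.5M, is among the dimmest genes measured. Cxcl1, a neutrophil chemokine, was 6.46 at 1M and 6.03 at 0.5M. Interferon and class I antigen genes had 22 of 31 higher and a median of 0.13, with 0.04 against level bins. The antiviral gene Oas1a was 5.94, 5.25, 6.38 and 5.60 log2 in the control, 0.5M, 1M and 2M arrays, and the chemokine Cxcl10 was 5.72 at 1M and 5.18 at 0.5M with 5.71 in the control. In both genes the control was closer to 1M than 0.5M was. B2m, the class I light chain and the brightest of those named, went the other way, at 10.46 log2 at 1M and 10.89 at 0.5M. These lists thus held no bright member past the threshold.

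Markers of lymphocytes and neutrophils were dim on both arrays. T cell genes Cd3d and Cd3g differed by 0.66 and 0.63, at 4.83 and 4.13 log2 at 1M and at 4.17 and 3.50 at 0.5M. The lymphocyte list (13 genes) had a median of 0.27 with 11 higher, and of 0.11 against level bins. The neutrophil list (13 genes) had a median of 0.13 with 11 higher, and -0.05 against level bins. Neither list had a member at or above the 40th percentile. Blood and platelet genes (8 of 14 measured) had a median of 0.26 with 6 higher, and of 0.10 against level bins, led by Gp9 at 6.58 log2 at 1M and 6.13 at 0.5M. Ppbp, a platelet chemokine, was 7.01, 8.04, 8.34 and 8.39 log2 in the control, 0.5M, 1M and 2M arrays. Class II antigen genes (8 genes) had a median of 0.10 with 6 higher, and of -0.05 against level bins. Perivascular macrophage genes (8 genes) had a median of 0.07 with 7 higher, but against level bins the median was -0.08 with 7 below. The globin genes had no row.

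Myelin genes were higher at 1M in 17 of 18, with a median of 0.20 and 0 past the threshold. All 18 were bright, and against level bins the median was 0.21 with 17 above. Cldn11, the claudin of the myelin sheath, was 10.79, 10.55, 10.96 and 10.55 log2 in the control, 0.5M, 1M and 2M arrays. Mog, a surface glycoprotein of myelin, was 10.12, 10.00, 10.38 and 9.69 log2, and Mag, the myelin-associated glycoprotein, was 10.55, 10.26, 10.63 and 10.00 log2. Opalin, an oligodendrocyte membrane protein, was 7.60, 7.22, 7.61 and 5.88 log2. In these genes the 1M array was the highest of the 4 and the control the next. Enpp6, a marker of newly formed oligodendrocytes, was 7.61 log2 at 1M and 7.18 at 0.5M. Against the control, the list median was -0.24 at 0.5M, 0.03 at 1M and -0.48 at 2M, with no order by cell number. Oligodendrocyte precursor genes were higher in all 10 measured, with a median of 0.18. The lineage factor Olig2 was 8.50 log2 at 1M and 8.10 at 0.5M, and Sox10 was 8.49 at 1M and 8.10 at 0.5M.

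Other glia and lining cells had smaller medians than the myelin and precursor lists as deposited. Against level bins the astrocyte median was above that of the precursor list, which was 0.14. Astrocyte genes (16 genes) had a median of 0.16 with 12 higher, and 0.17 against level bins. Gfap, the intermediate filament of astrocytes, was 9.42 log2 at 1M and 9.08 at 0.5M, while the connexin Gjb6 was 9.07 at 1M and 9.30 at 0.5M. Microglia genes (17 genes) had a median of 0.12 with 15 higher. Tmem119 was 7.89 log2 at 1M and 7.59 at 0.5M, Trem2 was 7.54 at 1M and 7.25 at 0.5M, and the control gave 7.89 and 7.15 for these genes. Ependymal cilia genes (22 genes) had a median of 0.14 with 19 higher, and 0.02 against level bins. Tanycyte genes (13 genes) had a median of -0.02 with 8 lower, and of -0.10 against level bins. Apart from Ppp1r1b, which it shares with the striatal list, its largest value was that of Col23a1, at 7.64 log2 at 1M and 7.19 at 0.5M. Ppp1r1b was the sole member of these 4 lists past the threshold.

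Markers of vessels and coverings were mixed. Endothelial genes (17 genes) had a median of -0.01 (-0.09 against level bins) with 10 lower and 0 past the threshold. Mural cell genes (13 genes) had a median of 0.06 (-0.01 against level bins) with 8 higher. The smooth muscle actin Acta2 was 9.30, 8.98, 8.53 and 8.83 log2 in the control, 0.5M, 1M and 2M arrays, and Des, desmin, was 6.35 at 1M and 5.78 at 0.5M. Meningeal fibroblast genes were lower at 1M in 13 of 19, with a median of -0.16. Ogn, the matrix proteoglycan osteoglycin, was 8.32, 8.21, 7.34 and 8.18 log2 in the control, 0.5M, 1M and 2M arrays (difference -0.88), low at 1M alone. Mgp, matrix Gla protein, was 6.93 log2 at 1M and 7.26 at 0.5M, while Col6a1 was 7.71 at 1M and 7.27 at 0.5M. Choroid plexus genes (14 genes) had a median of 0.14 with 10 higher, and of 0.04 against level bins. The water channel Aqp1 was 6.25 log2 at 1M and 5.71 at 0.5M, and Steap1 was 4.53 at 1M and 3.98 at 0.5M, both dim. Ttr, transthyretin, the most abundant transcript of the choroid plexus, was 7.51 at 1M and 7.80 at 0.5M.

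**Figure D4:**
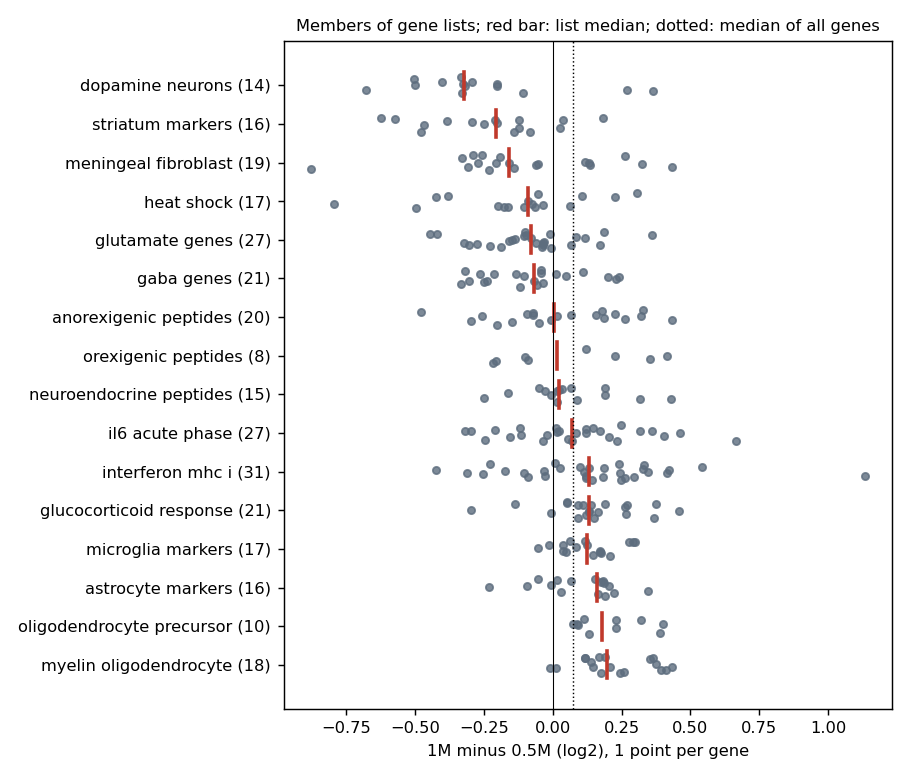
Difference of 1M minus 0.5M (log2) for each measured member of selected gene lists, 1 point per gene, with the list median as a bar. The dopamine list has a median of -0.32 and the myelin list a median of 0.20, against 0.07 over all genes.

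Genes of the principal fast transmitters leaned lower at 1M by small amounts. Glutamate genes were lower in 21 of 27 with a median of -0.08, and GABA and glycine genes were lower in 15 of 21 with a median of -0.07, with 0 past the threshold in both. Gria2, an AMPA receptor subunit, was 10.59 log2 at 1M and 11.01 at 0.5M, and Gabrb2, a GABA-A receptor subunit, was 10.73 at 1M and 11.04 at 0.5M. Homer2 was -0.45 by its brightest probe set and -0.27 averaged. Grm2, a metabotropic glutamate receptor, was higher, at 9.37 log2 at 1M and 9.01 at 0.5M. Against level bins the medians of the glutamate and GABA lists were -0.07 and -0.08. Serotonin and dopamine receptors (17 genes) had a median of -0.03 (-0.11 against level bins) with 9 lower. Sodium and calcium channels (35 genes) had a median of -0.03 with 23 lower, and Scn4b was 6.84 log2 at 1M and 7.32 at 0.5M. Potassium channels (87 genes) had a median of 0.05 with 52 higher, and near 0 against level bins. Their 4 members past the threshold, Kcna10, Kcng4, Kcne3 and Kcnj1, were all higher and all dim. Over all genes 2.6% were higher past the threshold, and 90.5% of those were dim.

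Genes of the heat shock response were lower at 1M in 13 of 17, with a median of -0.09. Chordc1, an HSP90-binding protein, was 9.06, 8.66, 7.87 and 8.74 log2 in the control, 0.5M, 1M and 2M arrays (difference -0.80). Hspe1, the mitochondrial chaperonin cofactor, was 9.61 at 1M and 10.11 at 0.5M, and Tcp1, a chaperonin subunit, was 9.76 at 1M and 10.18 at 0.5M. The 1M array was the lowest of the 4 in 11 of the 17 genes, against 18.6% of all genes, a rank that a mostly lower list favours. Unfolded protein response and ATF4 genes (24 genes) had a median of 0.07 (0.01 against level bins) with 14 higher and 0 past the threshold. Hsp90b1, a chaperone of the endoplasmic reticulum, was 10.28 log2 at 1M and 10.70 at 0.5M, while Atf5, a factor of the same response, differed by 0.45. Immediate early genes were higher in 17 of 21 with a median of 0.13 (0.08 against level bins) and 0 past the threshold, led by Junb at 7.11 log2 at 1M and 6.73 at 0.5M. Clock genes (18 genes) had a median of 0.02 with 9 higher, and Dbp, an output factor of the clock, was 9.61 at 1M and 9.32 at 0.5M.

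Metabolic and housekeeping genes had medians near 0. Cholesterol genes (20 genes) had a median of 0.03, with Fdft1, squalene synthase, at 10.53 log2 at 1M and 10.96 at 0.5M. Fatty acid and ketone genes (21 genes) had a median of 0.05, with Fabp5, a fatty acid binding protein, at 8.47 at 1M and 8.86 at 0.5M. Cytosolic ribosomal proteins (61 genes) had a median of -0.03, mitochondrial ribosomal proteins (77 genes) a median of 0.02, oxidative phosphorylation genes (81 genes) a median of -0.01 and proteasome genes (48 genes) a median of -0.01. Only Mrps18c at -0.51 and Atp5md at -0.54 passed the threshold among these 4 lists. Proliferation genes (19 genes), which are mostly dim, had a median of 0.11 (-0.07 against level bins), and Top2a was 0.53 by its brightest probe set and 0.21 averaged. Zinc finger genes with Zfp symbols (347 genes) had a median of 0.01 (-0.07 against level bins), with 5 higher and 9 lower past the threshold. Olfactory and vomeronasal receptors (1207 genes), which the hypothalamus is not known to use widely and which serve as a dim comparison, had a median of 0.11 and 63 higher and 6 lower past the threshold. Keratins and their associated proteins (96 genes) had a median of 0.20, with 7 higher and 0 lower. Both of these families were nearer 0 against level bins, at -0.04 and 0.04. Over all genes 2.6% were higher and 0.692% lower past the threshold.

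Small nucleolar and Cajal body RNAs, which guide chemical modification of other RNAs, were lower at 1M in 40 of 54, with a median of -0.12. Past the threshold were 7 of the 54, all lower, against 0.692% lower and 2.6% higher over all genes. Against level bins the median was -0.24, away from that of all genes. Snord47 was 7.90, 8.40, 7.19 and 7.84 log2 in the control, 0.5M, 1M and 2M arrays (difference -1.21). Snord37 was 5.68, 5.24, 4.15 and 5.06 log2 (difference -1.09). Snord73b was 6.83 log2 at 1M and 7.57 at 0.5M, and Snora16a was 7.94 at 1M and 8.63 at 0.5M, but in these the 2M array was lower still, at 6.69 and 7.70.

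MicroRNA genes went both ways. Of 300 genes with Mir symbols, 4 of them long noncoding hosts of microRNAs, 207 were higher by any amount and 93 lower, with a median of 0.14. Past the threshold 20 of the 300 were higher and 12 lower, against 2.6% and 0.692% of all genes. The median level of the list was 5.60 log2. In the group of 1994 genes at 5.16 to 5.89 log2, 139 were higher and 7 lower, so the higher count is near that of equally dim genes. Most of the 300 are dim, and their median against level bins was 0.01. The probes read the hairpin or its primary transcript, not the mature microRNA that binds targets. Mature sequences were found in RefSeq for 28 of the 32 microRNA genes past the threshold, on GRCm38.p6. The sequences below show the shared seed, several of the lower genes and examples of the higher genes, printed 5′ to 3′ with the seed (bases 2 to 8) in capitals. A shared seed means that 2 microRNAs can pair with the same target sites.
miR-384-5p: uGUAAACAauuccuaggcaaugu
miR-30a-5p: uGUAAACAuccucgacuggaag
miR-30c-5p: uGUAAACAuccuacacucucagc
miR-186-5p: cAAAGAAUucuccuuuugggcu
miR-376a-3p: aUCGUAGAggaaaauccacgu
miR-376b-3p: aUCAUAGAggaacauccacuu
miR-381-3p: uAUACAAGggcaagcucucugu
miR-136-5p: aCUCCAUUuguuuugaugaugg
miR-532-3p: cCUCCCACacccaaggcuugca
miR-218-5p: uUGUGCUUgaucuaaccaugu
miR-425-5p: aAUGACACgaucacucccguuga

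The first 3 share the seed GUAAACA of the miR-30 family, the sole seed found in different microRNAs past the threshold, but their genes went in opposite directions. Mir384, on chromosome X, was 6.81, 7.34, 6.33 and 6.96 log2 in the control, 0.5M, 1M and 2M arrays (difference -1.01). Mir30a was 5.50 log2 at 1M and 4.92 at 0.5M (difference 0.58), and Mir30c-1 was 5.53 at 1M and 4.89 at 0.5M (difference 0.64). The family's other hairpins differed by less, with Mir30d at 0.37, Mir30b at 0.07, Mir30e near 0 and Mir30c-2 at -0.23. Mir186, on chromosome 3, was 5.69 log2 at 1M and 6.58 at 0.5M (difference -0.90). On the higher side, Mir124a-2, a hairpin of the neuronal miR-124, was 6.41 at 1M and 5.51 at 0.5M. Mir532 was 5.84 log2 at 1M and 5.03 at 0.5M, Mir218-2 was 6.02 at 1M and 5.21 at 0.5M, and Mir425 was 6.87 at 1M and 6.11 at 0.5M. Mir693 and Mir196b followed at 0.72 and 0.65. In these 6 higher genes the 1M array was the highest of the 4.

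Of the 12 lower microRNA genes, 5 lie in the imprinted Meg3 to Mirg domain on chromosome 12, between 109.5 and 109.8 Mb on GRCm38.p6. It is a maternally expressed stretch of long noncoding RNAs and microRNAs active in brain. Mir376a was 4.58 log2 at 1M and 5.37 at 0.5M, and Mir376b was 7.12 at 1M and 7.89 at 0.5M. Mir381 was 6.61 log2 at 1M and 7.34 at 0.5M, Mir136 was 6.18 at 1M and 6.81 at 0.5M, and Mir539 was 7.22 at 1M and 7.74 at 0.5M. Of 297 genes annotated as microRNAs, the 40 in the domain had 25 lower and a median of -0.08, against 69 of 257 lower and a median of 0.16 elsewhere. The genes of the domain were brighter, with a median level of 7.57 log2 against 5.33 elsewhere, and against level bins the medians were -0.12 and 0.03. Of its long noncoding RNAs, Meg3 was 11.99 log2 at 1M and 12.08 at 0.5M, and Rian differed by -0.26. Rtl1, which is expressed from the paternal copy, differed by 0.15. The domain was singled out after the values were seen and no test was made.

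Base composition of the hairpin moved with the difference. Among 258 microRNA genes with a hairpin sequence, the 87 with the lowest share of G and C (28.4% to 43.9%) had a median difference of -0.01, with 0 higher and 9 lower past the threshold. The 86 with the highest share (52.1% to 69.2%) had a median of 0.24, with 8 higher and 2 lower, and the 85 between them had 0.13. Across these 258 genes, which share the same 2 arrays, the correlation of GC share and difference was r = 0.41 (rho = 0.42), and r = 0.44 after centring on level bins. For the other pairs r was 0.35 for 1M minus control, 0.34 for 2M minus 0.5M, 0.21 for 2M minus control, -0.25 for 2M minus 1M and -0.02 for 0.5M minus control. These pairs share arrays with each other, and the relation was not particular to 1M minus 0.5M. The hairpins of the chromosome 12 domain had a median GC share of 45.1%, against 47.4% elsewhere. The part of base composition in the values of single microRNA genes was not tested.

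**Figure D5:**
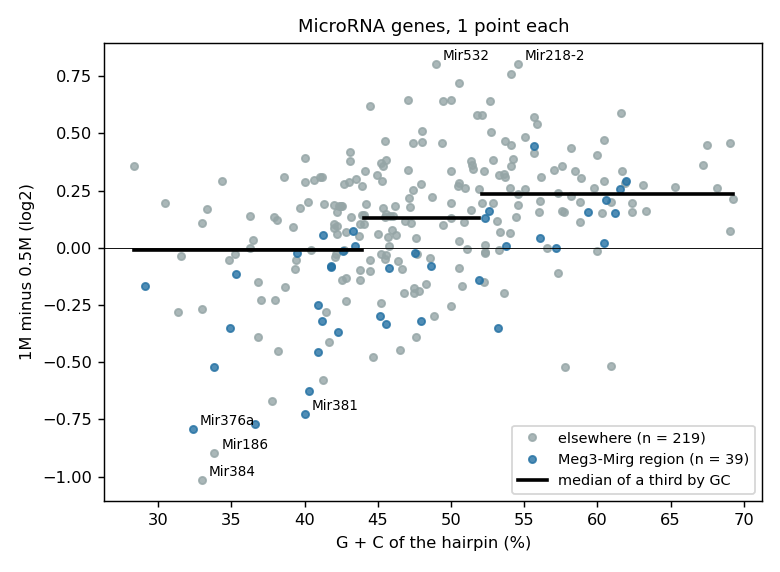
Difference of 1M minus 0.5M (log2) against the GC share of the hairpin (percent) for 258 microRNA genes, with those of the chromosome 12 domain marked. The points climb from a median of -0.01 in the lowest GC group to 0.24 in the highest.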

How the data were processed

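The authors deposited a table of log2 values with 1 row per probe set, made with RMA per the submitters' processing notes. Its version and scope were not given in the sources used here. Per the labels' protocols, 100 ng of RNA with an integrity number above 8 was used per array. The table held 35556 probe sets, 0 missing values and array medians of 6.72 to 6.77. The number of arrays limits the precision. The platform annotation gave 1 gene symbol to 21789 probe sets, several to 1621, and did not list 12146. The 21789 made 19938 genes, each represented by its probe set with the highest mean. Of them, 21698 probe sets matched RefSeq (GRCm38.p6) by Entrez number.

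The difference was taken as deposited. With 1 array on each side no test was run. The 53 lists, 42 written by hand and 11 by symbol pattern, were described by counts and medians, and 680 of the 737 genes written by hand were measured. Members and lists were chosen with earlier results of these data known. The text names the 15 highest and 15 lowest brighter genes, the 6 extremes of dim genes and of small RNAs, up to 4 members per list by size, and fixed appetite and acute phase genes. Others were chosen after their values were seen. Alternatives were dimness filters, averaged probe sets, cyclic loess (limma 3.58.1, R 4.3.3), centring and a threshold of 1 log2. Scripts in Python 3.11.15 were tested on simulated data.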

Additional observations from a re-analysis of the deposited data

How the results depend on the processing

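The count by size depended on the treatment of dim genes. As deposited it was 518 higher and 138 lower. With genes at or above the 40th percentile of level it was 49 and 104, at or above the 60th percentile 12 and 66, after cyclic loess 115 and 257, with the median of all genes set to 0 it was 250 and 253, and at a threshold of 1 log2 it was 3 and 9. With the median of each of 20 level bins set to 0, an alternative chosen after seeing the data, it was 107 and 277. The higher share of called genes was 79.0% as deposited, and 32.0%, 15.4%, 30.9%, 49.7%, 25% and 27.9% in the same order of settings. Averaged probe sets gave 508 and 128, or 79.9%. The dopamine list moved to -0.26 as a mean of members, and kept a negative value in all alternatives run. The pituitary list, at 0.01 as a median, was -0.66 as a mean and -0.091 after cyclic loess and -0.093 against level bins. The list median kept its sign in 39 of 53 lists after cyclic loess, in 38 against level bins, in 50 as means, in 46 of the 51 that had members past the 40th percentile, and in 53 with averaged probe sets. Of 83 named genes past the threshold, 64 stayed past it after cyclic loess and 64 against level bins, and 0 changed sign. Averaging probe sets could move only the 5 with several, and 3 of these were no longer past it, Rasef, Scoc and Top2a. Over all genes, 8 of 35 with several stayed past it. No paired analysis was possible because each group had 1 array and the labels give no replicate numbers, and for the same reason no array could be left out. With 1 pool of 3 mice against 1 pool of 4, these values hold no spread between animals.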

Other observations

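Probe sets outside the named genes differed more often than those with 1 symbol. Of the 12146 probe sets that the annotation did not list, 930 (7.66%) were at least 0.5 log2 higher at 1M and 1574 (13%) lower. Of the 1621 probe sets with several symbols, 21 (1.30%) were higher and 116 (7.16%) lower. Of the 21789 with 1 symbol, 553 (2.54%) were higher and 227 (1.04%) lower.

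By RNA class, the 675 long noncoding RNA genes had a median difference of 0.17 with 36 higher and 7 lower past the threshold, and the 167 transcribed pseudogenes had a median of 0.15 with 13 higher and 0 lower. Both classes are dim, and against level bins their medians were 0.02 and 0.01. The 18556 protein-coding genes had a median of 0.07 with 439 higher and 107 lower.

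Among brighter protein-coding genes, the median difference went down with the length of genome a gene spans. It was 0.10 in the shortest of 10 groups (304 to 4712 bases) and -0.03 in the longest, and 0.06 and -0.04 against level bins. The GC share of the promoter had no such relation, with a median of 62.2% in the higher genes, 62.0% in the lower genes and 61.5% over all, and a correlation across genes of 0.0056.

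The difference of 2M minus control shares no array with 1M minus 0.5M. Across all named genes, which are not independent replicates, the correlation of these differences was r = 0.22 (rho = 0.24), and r = 0.17 (rho = 0.19) after centring on level bins.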
